A study of Mus musculus with 8 samples.

Results

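Glycosyltransferases are the Golgi enzymes that build the sugar chains of glycoproteins and glycolipids, each adding 1 kind of sugar in 1 kind of linkage. Mucin-type chains are started by the GalNAc-transferases (Galnt genes) on serine or threonine, branched by the core enzymes (Gcnt genes) and lengthened with galactose and N-acetylglucosamine. The Mgat enzymes branch the other main class, the N-glycans on asparagine, and sialyltransferases (St genes) and fucosyltransferases (Fut genes) cap the chain ends. Pancreatic ductal adenocarcinoma (PDAC) is known for abundant mucins and for sialylated and fucosylated chain ends, among them the carbohydrate used as its serum marker.

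The genes described here were all those of the deposited table whose symbol belonged to the Mgat, Galnt, B3gnt, B4galt, B3galt, Fut, St3gal, St6gal, St6galnac, St8sia, Gcnt or Gxylt families, 85 of 53465 genes. Of these, 51 were detected, with 10 or more counts in at least 2 libraries, and 51 of 51 passed the filter on low counts and were tested among 14301 genes.

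PolyA RNA was measured in 8 libraries of the mouse PDAC lines B73 and B87, each grown from 1 primary tumor of a KC-shSmad4 mouse. These mice carry Ptf1a-Cre, which acts in the pancreatic lineage, the rtTA3 activator and a GFP-linked short hairpin against Smad4 that doxycycline (Dox) switches on. Smad4 is the common partner through which SMAD transcription factors respond to TGFβ. All groups therefore share the same alleles, the hairpin cassette among them. Which Smad4 hairpin each line carries is not given in the labels, so the lines may differ in it. The 4 groups were Smad4 off (Dox kept on) or Smad4 on (5 days without Dox). Each was treated for 24 h with 100 pM TGFβ1 or with SB505124 at 2.5 µM, which blocks the TGFβ type I receptor kinases. Each group held 1 library of each line, so every test below measures how far the 2 lines varied around a shared change. The presence of Dox and the lowering of Smad4 cannot be told apart. No group went without both TGFβ1 and SB505124, so an effect of added TGFβ1 and an effect of SB505124 cannot be told apart either. Every change with TGFβ1 below is TGFβ1 against SB505124.

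The libraries held 18389235 to 23440550 counts, and 3 counts, the limit that a count of 0 allows, corresponded to 0.125 to 0.162 CPM (counts per 1000000 counts of the scaled library); such limits cover counting error only. Smad4 itself stood at 33.7 to 35.5 CPM in the 4 libraries with Smad4 off and at 97.4 to 117 CPM in the 4 with Smad4 on, with no overlap. Smad4 off thus means a lowered transcript here, not an absent one. Of the 9 ductal markers, Krt8, Krt18 and Krt19 were abundant in both lines, while Epcam reached only 2.11 CPM; the summed level of the list was 3954 to 6230 CPM in B73 and 1222 to 2109 CPM in B87. The fibroblast list summed to 3.35 to 38.4 CPM in B73 and to 51.4 to 668 CPM in B87. Most of it came from Col1a1 in B87 and from Col3a1 in B73, except in B73 with Smad4 on under TGFβ1. There Col1a1 stood at 5.10 CPM and Col3a1 at 1.68 CPM. Dcn, Lum and Thy1 had at most 3 counts in any library. The leukocyte list came to at most 6.44 CPM, the endothelial list to at most 26.1 CPM and the acinar list to at most 1.41 CPM. Within the ductal list, Krt19 stood at 850 and 1575 CPM in B73 and 626 and 729 CPM in B87 under SB505124, and at 436 and 299 CPM and at 162 and 153 CPM under TGFβ1 (Smad4 off and on). In the same order, Cdh1 stood at 325 and 469 CPM in B73 and 149 and 80.5 CPM in B87 under SB505124. Under TGFβ1 Cdh1 stood at 185.5 and 109 CPM in B73 and at 64.0 and 11.5 CPM in B87. Other ductal markers went the other way: Krt8 and Krt18 stood at 1944 and 1545 CPM in B73 with Smad4 on under SB505124 and at 2410 and 2428 CPM under TGFβ1, and in B87 Krt18 went from 592 to 749 CPM. The part of such shifts in the changes below was not tested, and in bulk RNA fewer cells with a transcript and less of it per cell cannot be told apart.

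Below, "called" means a Benjamini-Hochberg adjusted p under 0.05 over all tested genes and a change over 2-fold in edgeR's quasi-likelihood test, with the line in the model, and "rose" or "fell" is used for an adjusted p under 0.05. Fold changes are on the log2 scale with their standard error, and adjusted p values come from that test. Changes under 2-fold are less secure: of 32 such values with an adjusted p under 0.05 given below, 4 kept it with each library left out in turn (St6gal1, St3gal1, Galnt4 and B4galt6 with TGFβ1 and Smad4 on) and 5 with the line left out (Galnt10 and Fut11 in place of Galnt4).

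The repertoire of the cells was led by a few genes of each class. Levels between genes are compared in CPM per kilobase of transcript, as means over the 8 libraries. The highest was B3gnt3, which extends core 1 O-glycans, at 70.5 CPM per kilobase, followed by Mgat4b, an N-glycan branching enzyme, at 53.5, Galnt1, a broadly acting GalNAc-transferase, at 45.2, and St3gal4, a sialyltransferase of galactose-ended chains, at 44.1. B4galt1, the main maker of N-acetyllactosamine, stood at 37.9, Mgat2, which adds the second N-glycan antenna, at 37.8, and St6gal1, which sialylates N-glycans in another linkage than the St3gal enzymes, at 21.5 CPM per kilobase. The median of the 51 genes was 6.49 CPM per kilobase against 5.57 over all tested genes. Gxylt1, which adds xylose to O-glucose on EGF repeats such as those of Notch, led its class at 14.4, and Fut11 led the fucosyltransferases other than the core enzyme Fut8 (7.02) at 6.49. The polysialic acid and disialic acid enzymes were barely present, with St8sia6 at 0.0619 and St8sia4 at 0.0428 CPM per kilobase.

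**Figure D1:**
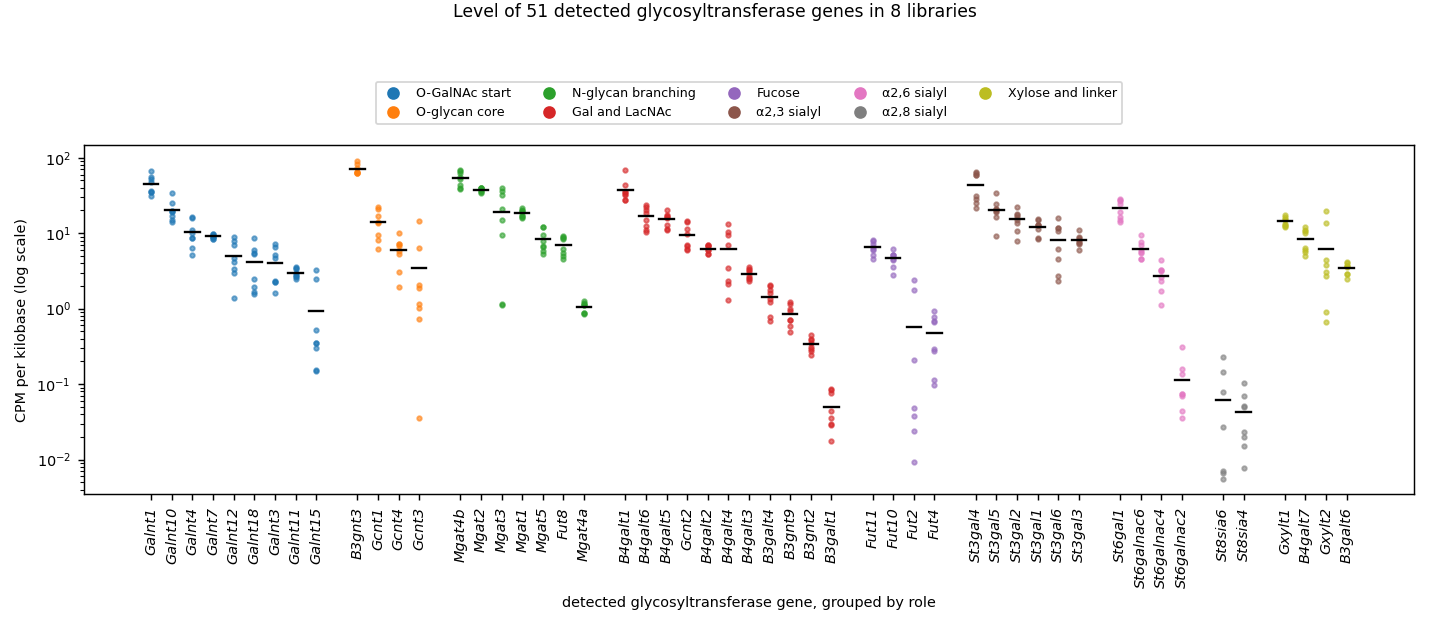
Level of the 51 detected glycosyltransferase genes in CPM per kilobase on a log axis, grouped by role; each point is 1 of the 8 libraries, bars are means, and libraries at 0 are not drawn. B3gnt3 was highest at a mean of 70.5 and St8sia4 lowest at 0.0428 CPM per kilobase, and Mgat3, Gcnt3, Fut2 and Gxylt2 spread widely between libraries.

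The 34 genes that were not detected included 8 GalNAc-transferases (Galnt2, Galnt5, Galnt6, Galnt9, Galnt13, Galnt14, Galnt16 and Galnt17), the core enzymes B3gnt6 and Gcnt7, and Mgat4c, Mgat4d, Mgat4e and Mgat5b. They also included B3gnt4, B3gnt5, B3gnt7, B3gnt8, B3galt2, B3galt5, Fut1, Fut7, Fut9, St6gal2, St6galnac1, St6galnac3, St6galnac5, a second entry of St6galnac2, St8sia1, St8sia2, St8sia3 and St8sia5. The last 2 matches, Galnt6os and St8sia3os, are named as opposite-strand transcripts and not enzymes. The highest count among the 34 was 16, for Galnt2, and Gcnt7 reached 12; each was at 10 or more in 1 library only. At this depth Fut7 and Fut9, which complete Lewis-type fucosylation, reached at most 2 counts and St6galnac1, which makes the sialyl-Tn antigen, was at 0 counts in every library.

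Most change followed TGFβ1 in cells with Smad4 on. In that comparison 13 of the 51 genes were called lower (25.5%), against 8.31% of all tested genes, and 3 were called higher (5.88%), against 5.62%. By adjusted p alone 20 fell (39.2%, against 17.6% of all tested genes) and 12 rose (23.5%, against 15.6%). The median log2 fold change was -0.21 over the 51 genes and -0.02 over all tested genes. The genes that fell covered core O-glycan branching (Gcnt1, Gcnt3, Gcnt4), bisected N-glycans (Mgat3), 3 of 6 St3gal sialyltransferases called, both St8sia genes and Fut2, while Gxylt2, B4galt7 and Gcnt2 were called higher.

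With Smad4 off, TGFβ1 moved fewer of these genes past the threshold. Here 6 were called lower (11.8%, against 2.82% of all tested genes) and 1 higher (1.96%, against 3.11%), and by adjusted p alone 10 fell (19.6%, against 6.24%) and 6 rose (11.8%, against 6.96%). The 7 called genes, Gxylt2 upwards and Mgat3, St3gal4, St3gal6, B4galt4, Fut2 and St8sia4 downwards, were also called in the same direction with Smad4 on. That Smad4 off gave fewer calls does not show a smaller response gene by gene: in the direct test of the difference (the interaction of Smad4 and treatment) 1 gene, Mgat3, was called lower (1.96%, against 0.133% of all tested genes) and 0 were called higher (0.0559% of all tested genes). At an unadjusted p under 0.05 that test had 7 lower and 2 higher, for which no share over all tested genes was taken. DESeq2 with the line called 3 lower and 0 higher. It called 134 of all tested genes for this difference, against 27 in the main fit.

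**Figure D2:**
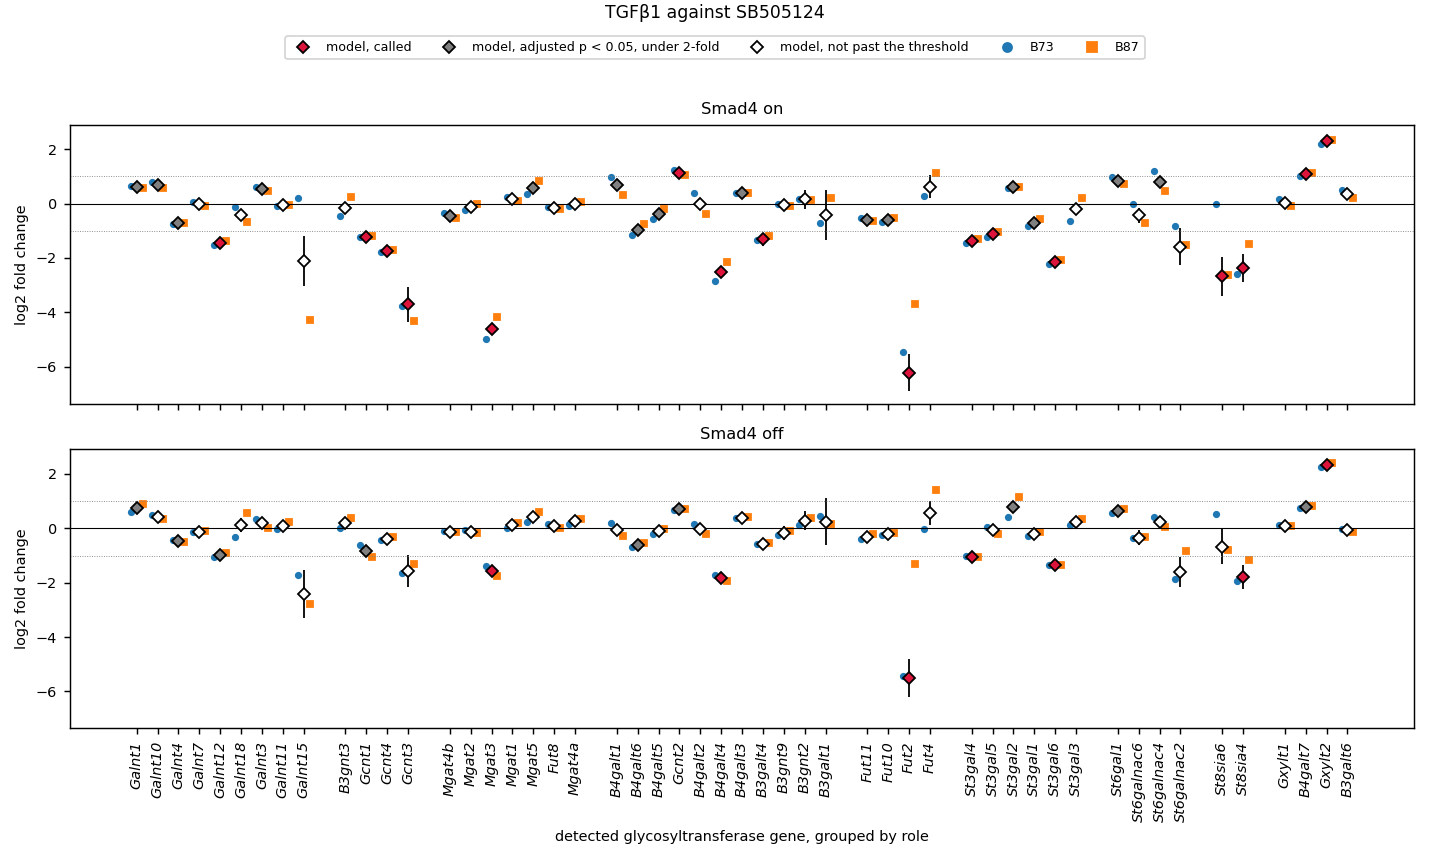
Log2 fold change of TGFβ1 against SB505124 for the 51 genes, with Smad4 on above and Smad4 off below; diamonds are the model's value with its standard error, circles line B73, squares line B87, and dotted lines mark 2-fold. With Smad4 on 13 genes were called lower and 3 higher, and with Smad4 off 6 lower and 1 higher; Gxylt2 stood above 2 and Mgat3 below 0 in both.

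Restoring Smad4 under TGFβ1 left 3 genes called lower, Mgat3, St3gal6 and Gcnt4 (5.88%, against 1.80% of all tested genes), and 1 called higher, Galnt18 (1.96%, against 1.31%). By adjusted p alone 8 fell (15.7%, against 3.28%) and 4 rose (7.84%, against 3.52%), and the median log2 fold change was -0.08 over the 51 genes against -0.01 over all tested genes. Under SB505124, where receptor signaling is blocked, 1 gene was called higher, again Galnt18 (1.96%, against 0.636%), and 0 were called lower (0.455% of all tested genes). By adjusted p alone the counts under SB505124 were also 1 higher (1.96%, against 0.972%) and 0 lower (0.622% of all tested genes); 5 genes were higher and 4 lower at an unadjusted p under 0.05, and DESeq2 with the line called 0 lower. The Smad4 and TGFβ1 comparisons share libraries and are not independent of each other.

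**Figure D3:**
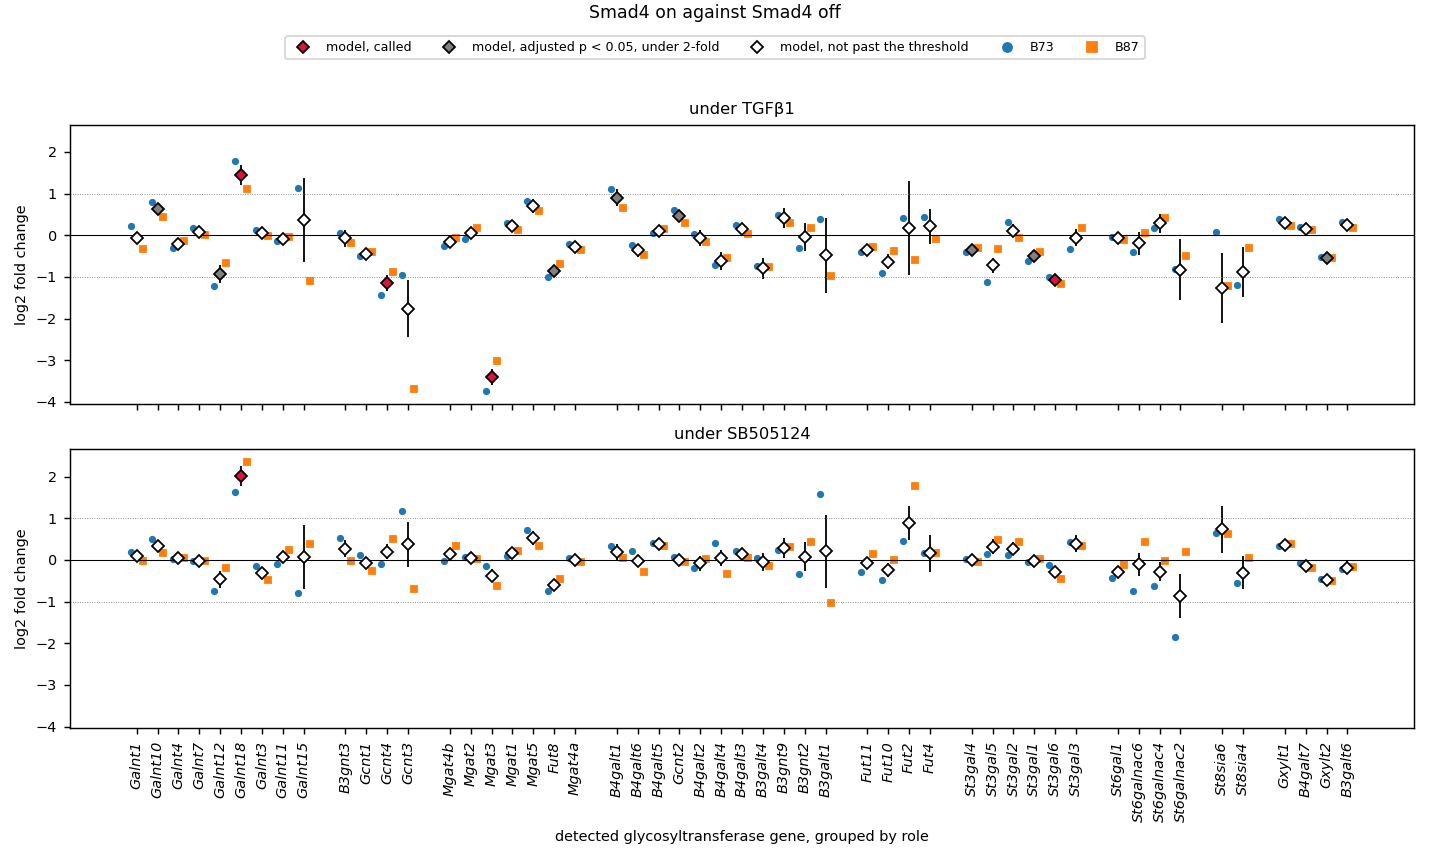
Log2 fold change of Smad4 on against Smad4 off for the 51 genes, under TGFβ1 above and SB505124 below; diamonds are the model's value with its standard error, circles line B73, squares line B87, and dotted lines mark 2-fold. Mgat3 fell by 3.40 under TGFβ1 and stood at -0.38 under SB505124, while Galnt18 rose in both.

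The promoters of genes called in more than 1 of the Smad4 and treatment comparisons were read for SMAD motifs, to show what lies at their starts. RefSeq promoters on GRCm38.p6, from 250 bases before to 50 bases after the start, were found for 37 of the 51 genes, and the 5 below are those of genes called more than once whose RefSeq start lies within 100 bases of the start in the deposited table. Capitals mark the SMAD motif CAGAC, or GTCTG where it lies on the other strand; each sequence runs along the strand of its gene.
B4galt4, chr16:38742009-38742308, plus strand: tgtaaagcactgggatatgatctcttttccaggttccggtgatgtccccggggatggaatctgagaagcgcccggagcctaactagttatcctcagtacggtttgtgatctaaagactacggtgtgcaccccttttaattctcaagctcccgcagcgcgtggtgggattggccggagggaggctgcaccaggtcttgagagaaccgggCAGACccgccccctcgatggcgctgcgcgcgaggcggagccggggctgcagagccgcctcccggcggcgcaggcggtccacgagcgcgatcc
Gcnt4, chr13:96924463-96924762, plus strand: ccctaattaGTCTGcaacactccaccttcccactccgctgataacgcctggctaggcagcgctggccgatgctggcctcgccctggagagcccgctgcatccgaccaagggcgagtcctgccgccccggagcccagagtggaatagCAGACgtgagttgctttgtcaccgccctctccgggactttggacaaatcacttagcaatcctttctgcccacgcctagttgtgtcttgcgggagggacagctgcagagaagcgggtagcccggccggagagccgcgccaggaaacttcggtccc
Gxylt2, chr6:100704484-100704783, plus strand: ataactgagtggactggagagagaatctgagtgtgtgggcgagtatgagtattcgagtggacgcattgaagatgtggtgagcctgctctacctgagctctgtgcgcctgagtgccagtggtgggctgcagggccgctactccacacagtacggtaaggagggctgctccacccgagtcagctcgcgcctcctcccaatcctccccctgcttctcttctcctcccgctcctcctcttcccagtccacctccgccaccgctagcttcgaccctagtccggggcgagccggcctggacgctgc
St3gal6, chr16:58524204-58524503, minus strand: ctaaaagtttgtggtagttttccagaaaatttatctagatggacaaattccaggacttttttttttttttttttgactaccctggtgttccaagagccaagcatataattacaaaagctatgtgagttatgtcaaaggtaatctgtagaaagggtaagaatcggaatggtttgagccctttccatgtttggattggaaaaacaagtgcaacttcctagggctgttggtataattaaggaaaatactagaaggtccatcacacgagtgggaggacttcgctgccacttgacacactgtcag
St8sia4, chr1:95667545-95667844, minus strand: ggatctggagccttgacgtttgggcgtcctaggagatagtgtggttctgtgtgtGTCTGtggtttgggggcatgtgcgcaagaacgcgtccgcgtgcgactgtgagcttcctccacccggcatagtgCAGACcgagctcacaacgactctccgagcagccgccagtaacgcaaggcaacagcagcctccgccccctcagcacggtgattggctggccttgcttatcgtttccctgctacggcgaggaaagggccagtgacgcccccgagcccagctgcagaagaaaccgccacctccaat
CAGAC was present on either strand in B4galt4, Gcnt4 and St8sia4 and not in these windows of Gxylt2 and St3gal6. It was found in 5 of 10 genes (50%) that were called in a Smad4 or treatment comparison and have a RefSeq start within 100 bases, in 14 of the 37 genes at any distance (37.8%) and in 49.6% of 32851 promoters. The palindrome GTCTAGAC was found in 0 of the 37 and in 0.213% of all promoters, and the GC-rich SMAD motif GGCGC in 5 of the 10 (50%), 24 of the 37 (64.9%) and 36.9% of all. The GC box GGGCGG was in 5 of the 10 (50%), 26 of the 37 (70.3%) and 35.7% of all, and the AP-1 motif TGANTCA in 0 of the 10, 1 of the 37 (2.7%) and 7.81% of all. GGCGC and GGGCGG can overlap, and a match is a description of letters, not a bound site. The shares of all promoters count every entry, whether or not its gene was detected. The 37 hold 1 start for each detected gene, so these shares are of unlike sets.

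Mgat3 (ENSMUSG00000042428, GRCm38 chr15:80173721-80215519, plus strand) adds the bisecting N-acetylglucosamine to N-glycans, a modification that blocks further branching. In B73 it stood at 185 CPM with Smad4 off and 167 CPM with Smad4 on under SB505124, at 70.8 CPM with Smad4 off under TGFβ1 and at 5.21 CPM with Smad4 on under TGFβ1. In B87 the same conditions gave 149.5, 97.1, 43.9 and 5.35 CPM. The 2 libraries with both Smad4 and TGFβ1 were far below the other 6, which did not overlap with them. Smad4 restoration under TGFβ1 lowered it by a log2 fold change of -3.40 ± 0.20 (adjusted p = 0.000902), with -3.74 in B73 and -3.02 in B87, and under SB505124 the value was -0.38, past no threshold. The difference between these Smad4 effects was -3.03 ± 0.26 (adjusted p = 0.0189; B73 -3.60, B87 -2.39); without the line in the model it was -3.10 with an adjusted p of 0.563. That call was also lost on leaving out any of 5 libraries: B73 with Smad4 off under SB505124 (0.0861), with Smad4 on under SB505124 (0.0585), with Smad4 off under TGFβ1 (0.13) or with Smad4 on under TGFβ1 (0.0633), or B87 with Smad4 off under TGFβ1 (0.0767, all adjusted p). With TGFβ1, Mgat3 fell by 4.60 ± 0.21 when Smad4 was on (adjusted p = 4.83e-05) and fell by 1.57 ± 0.17 when it was off (adjusted p = 0.00236; 0.0873 without the line).

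The other N-glycan branching enzymes moved less. Mgat5, which makes the branch that bisecting residues oppose, gave 5.30 to 9.56 CPM per kilobase under SB505124 and 12.1 and 11.9 CPM per kilobase in B73 and B87 with Smad4 on under TGFβ1. Mgat3 was above Mgat5 per kilobase in the 6 libraries other than those: with Smad4 off under TGFβ1 the levels were 15.2 against 6.83 in B73 and 9.42 against 7.94 in B87. With Smad4 on under TGFβ1 the order was turned in both lines, at 1.12 against 12.1 and at 1.15 against 11.9 CPM per kilobase. Mgat5 rose with TGFβ1 in cells with Smad4 on (0.58 ± 0.16, adjusted p = 0.0313), and its Smad4 change under TGFβ1 was 0.70 ± 0.16, just short of the threshold. Fut8, the core fucosyltransferase of N-glycans, fell with Smad4 under TGFβ1 (-0.86 ± 0.12, adjusted p = 0.00953), going from 73.2 to 36.2 CPM in B73 while B87 went from 69.4 to 42.7 CPM. Mgat4b fell slightly with TGFβ1 when Smad4 was on (-0.44 ± 0.11, adjusted p = 0.0206). Mgat1 and Mgat2, which start the antennae, and Mgat4a passed no threshold in any of the Smad4 or treatment comparisons.

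Galnt18 (ENSMUSG00000038296, chr7:111471661-111779977, minus strand), a member of the GalNAc-transferase family, was the single member called higher with Smad4 in both treatments. With Smad4 off and then on, B73 read 4.99 and 15.6 CPM under SB505124 and 4.03 and 14.2 CPM under TGFβ1. B87 read 4.26 and 22.1 CPM, then 6.28 and 13.6 CPM. The 4 libraries with Smad4 on lay at 13.6 CPM or above and the 4 with Smad4 off at 6.28 CPM or below. The log2 fold change was 2.01 ± 0.24 under SB505124 (adjusted p = 0.0139) and 1.46 ± 0.24 under TGFβ1 (adjusted p = 0.0178). These calls were lost on leaving out any of the libraries compared, with adjusted p of 0.0529 to 0.0819 under SB505124 and 0.0515 to 0.167 under TGFβ1, and without the line (0.163 and 0.133).

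Among the other GalNAc-transferases the changes went both ways. Galnt12, a mucin-type enzyme of the digestive tract, stood in B73 at 16.0 and 9.46 CPM under SB505124 (Smad4 off and on) and at 7.67 and 3.22 CPM under TGFβ1. In B87 the values were 20.6, 17.97, 10.8 and 6.78 CPM. TGFβ1 lowered it with Smad4 on (-1.46 ± 0.21, adjusted p = 0.00271; 0.0896 without the line) and, just under 2-fold, with Smad4 off (-0.996, adjusted p = 0.0225). It also fell with Smad4 under TGFβ1 (-0.94, adjusted p = 0.0497). Galnt1 rose with TGFβ1 in both states (0.60 with Smad4 on, 0.76 with Smad4 off, adjusted p = 0.0163 and 0.0162), as Galnt10 did with Smad4 on (0.70, adjusted p = 0.00655), while Galnt4 fell in both (-0.73 and -0.48, adjusted p = 0.00132 and 0.0163). Galnt10 rose with Smad4 under TGFβ1 as well (0.62, adjusted p = 0.036), and Galnt3 rose with TGFβ1 when Smad4 was on (0.55, adjusted p = 0.0278). Galnt4 shares 8.25% of its exon bases with Poc1b on the same strand, which fell by 0.60 with TGFβ1 in cells with Smad4 on (adjusted p = 0.00459).

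Of the 4 detected genes of O-glycan core branching and extension, the branching enzymes Gcnt1, Gcnt3 and Gcnt4 were called lower with TGFβ1 in cells with Smad4 on (8.31% of all tested genes were), and B3gnt3, which extends core 1, was not. Gcnt1, the main core 2 enzyme, read 116, 125, 75.1 and 53.3 CPM in B73, in the order Smad4 off and on under SB505124, then off and on under TGFβ1, and 93.8, 78.4, 45.1 and 34.0 CPM in B87. In each line the libraries with TGFβ1 were below those with SB505124. It fell by 1.22 ± 0.12 on the log2 scale with Smad4 on (adjusted p = 0.000576; 0.0747 without the line), and its change with Smad4 off was -0.84 (adjusted p = 0.00601), under 2-fold.

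Gcnt4, another core 2 enzyme, read 37.0, 34.5, 27.2 and 10.0 CPM in B73 and 36.2, 51.5, 29.3 and 15.8 CPM in B87, in the same order. The 2 libraries with Smad4 and TGFβ1 were the lowest. It fell with TGFβ1 when Smad4 was on (-1.74 ± 0.19, adjusted p = 0.000859) and with Smad4 under TGFβ1 (-1.16 ± 0.19, adjusted p = 0.0176), and its value with TGFβ1 when Smad4 was off was -0.38 (adjusted p = 0.221). The Smad4 call was lost without the line (adjusted p = 0.18) and on leaving out the TGFβ1 libraries of B73 with Smad4 off (0.15) or on (0.107) or of B87 with Smad4 off (0.0682). The direct test of the difference missed the threshold (-1.36 ± 0.26, adjusted p = 0.144).

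Gcnt3, the mucin-type enzyme of core 2 and core 4, was the most variable of the 3. In B73 it stood at 27.4 CPM with Smad4 off and 61.8 CPM with Smad4 on under SB505124, and at 8.74 and 4.44 CPM under TGFβ1. In B87 the same conditions gave 7.995, 4.91, 3.14 and 0.153 CPM, the last from 3 counts. TGFβ1 lowered it with Smad4 on (-3.71 ± 0.65, adjusted p = 0.00549; 0.187 without the line), and the value was -2.65 without B73 with Smad4 on under SB505124 and -5.78 without B73 with Smad4 on under TGFβ1. In B87 alone the ratio with Smad4 on was 32.1-fold, with an exact 95% counting interval of 10.7 to 158. B3gnt3, the most abundant gene of the class, ran from 189 to 274 CPM over the 8 libraries and passed no threshold in these comparisons.

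The St3gal sialyltransferases, all 6 of which were detected, were led downwards by St3gal4 and St3gal6, which cap N-acetyllactosamine ends and take part in making sialyl Lewis structures. St3gal6 (ENSMUSG00000022747, chr16:58468125-58524243, minus strand) read 70.9, 65.2, 27.9 and 13.9 CPM in B73 and 96.5, 70.4, 37.4 and 16.7 CPM in B87, with Smad4 off and on under SB505124 and then under TGFβ1. The groups with TGFβ1 did not overlap those with SB505124, and within TGFβ1 the libraries with Smad4 on were below those with Smad4 off. With TGFβ1 it fell by 2.15 ± 0.12 when Smad4 was on (adjusted p = 9.61e-05) and fell by 1.36 ± 0.11 when Smad4 was off (adjusted p = 0.00105), and with Smad4 under TGFβ1 it fell by 1.08 ± 0.12 (adjusted p = 0.00442; 0.129 without the line). Its exons share 26% of their bases with Dcbld2 on the other strand, and Dcbld2 itself passed no threshold in these comparisons, with log2 fold changes of -0.07 to 0.11.

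St3gal4 (ENSMUSG00000032038, chr9:35046576-35119268, minus strand) stood at 171 and 174 CPM in B73 and at 190.2 and 184 CPM in B87 under SB505124. Under TGFβ1 it stood at 84.2 and 63.9 CPM in B73 and at 90.96 and 73.5 CPM in B87, with Smad4 off and on. It fell by 1.38 ± 0.08 with Smad4 on (adjusted p = 0.0001), fell by 1.04 ± 0.08 with Smad4 off (adjusted p = 0.000728), and slightly with Smad4 under TGFβ1 (-0.35, adjusted p = 0.0419). St6gal1 rose with TGFβ1, by 0.84 with Smad4 on and 0.64 with Smad4 off (adjusted p = 0.00102 and 0.00749). Per kilobase, St3gal4 was at 58.5 to 65.1 CPM under SB505124 against 14.2 to 19.3 for St6gal1, and with Smad4 on under TGFβ1 the levels were 21.9 against 27.7 in B73 and 25.2 against 24.5 in B87. The order of St3gal4 and St6gal1 seen under SB505124 was turned in B73, and in B87 the levels were nearly level.

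The other St3gal genes were mixed. St3gal5, the synthase of the ganglioside GM3, read 50.3, 55.6, 51.9 and 23.8 CPM in B73 and 63.1, 88.7, 54.6 and 43.2 CPM in B87, and was lowest with Smad4 on under TGFβ1 in each line. It fell with TGFβ1 when Smad4 was on (-1.12 ± 0.18, adjusted p = 0.00428; 0.0789 without the line), and came under 2-fold without B73 with Smad4 on under TGFβ1 (-0.88) or B87 with Smad4 on under SB505124 (-0.98). St3gal1, which sialylates core 1 O-glycans, fell with TGFβ1 when Smad4 was on (-0.71, adjusted p = 0.00307) and with Smad4 under TGFβ1 (-0.50, adjusted p = 0.0384). St3gal2 went the other way with TGFβ1, rising by 0.61 with Smad4 on and 0.77 with Smad4 off (adjusted p = 0.0254 and 0.0238). St3gal3 passed no threshold.

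Of the other sialyltransferases, St6galnac4 rose with TGFβ1 when Smad4 was on (0.80, adjusted p = 0.0322). St8sia4, a polysialic acid synthase, was at most 2.10 CPM: B73 read 2.10, 1.41, 0.471 and 0.153 CPM and B87 1.01, 1.04, 0.398 and 0.306 CPM. The TGFβ1 libraries were below the SB505124 libraries, and it was called lower with Smad4 on (-2.36 ± 0.52, adjusted p = 0.0136) and with Smad4 off (-1.79 ± 0.45, adjusted p = 0.0429). In B73 with Smad4 on its counts went from 26 to 3, a ratio of 9.18 with an exact 95% counting interval of 2.81 to 47.4. Its call with Smad4 off was lost under DESeq2 (adjusted p = 0.134), without the line (0.152) and on leaving out any of 6 libraries, which gave 0.0635 to 0.263; its call with Smad4 on was lost without B73 with Smad4 on under SB505124 (0.0577) or under TGFβ1 (-1.63, adjusted p = 0.1) or without B87 with Smad4 on under SB505124 (0.062), and the value was -3.26 without B87 with Smad4 on under TGFβ1.

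St8sia6, which adds disialic acid to O-glycans, had at most 0.054 CPM in B73, from 1 count or none. In B87 it stood at 1.10, 1.75, 0.598 and 0.204 CPM, in the same order. Its call with TGFβ1 and Smad4 on (-2.68 ± 0.73, adjusted p = 0.0294) thus rested on B87: it was lost without B87 with Smad4 on under TGFβ1 (-0.09, adjusted p = 0.999) or SB505124 (-1.93, 0.581), without the TGFβ1 libraries with Smad4 off of B73 (0.0518) or B87 (0.0525), without B73 with Smad4 on under SB505124 (0.057), under DESeq2 (0.247) and without the line (0.429).

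Fut2 (ENSMUSG00000055978, chr7:45648591-45666394, minus strand) makes the H antigen of epithelial secretions by adding fucose to terminal galactose. In B73 it had 191 and 244 counts under SB505124, 9.53 and 13.2 CPM, and 3 and 4 counts under TGFβ1, with Smad4 off and on. In B87 it had 6 and 27 counts under SB505124 and 1 and 0 counts under TGFβ1. The TGFβ1 libraries of both lines were thus at or next to the limit of detection. In B73 with Smad4 off the ratio was 74.2-fold (exact 95% counting interval 25 to 363), in B87 with Smad4 off it was 5.29-fold (0.642 to 243), and in B87 with Smad4 on the level was at least 7.34-fold lower, taking 3 counts as the limit in that library. The model's log2 fold change, whose size depends on the handling of such low counts, was -6.22 ± 0.68 with Smad4 on (adjusted p = 0.000839) and -5.50 ± 0.69 with Smad4 off (adjusted p = 0.00431). Without the line neither was called (adjusted p = 0.127 and 0.27), and with Smad4 off the call was lost without B73 with Smad4 off under SB505124 (-4.07, adjusted p = 0.0572) or TGFβ1 (-3.04, adjusted p = 0.218). With Smad4 on the call held without each library, at -7.24 and -7.28 without B73 with Smad4 on under SB505124 or TGFβ1. Fut10 and Fut11 fell with TGFβ1 when Smad4 was on (-0.61 and -0.59, adjusted p = 0.0337 and 0.0136).

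Among the galactosyltransferases, B4galt4 (ENSMUSG00000022793), which makes N-acetyllactosamine, fell the most. It read 21.5, 28.5, 6.47 and 3.93 CPM in B73 and 39.9, 31.5, 10.4 and 7.09 CPM in B87, with Smad4 off and on under SB505124 and then under TGFβ1. The TGFβ1 libraries lay below every SB505124 library. It fell by 2.50 ± 0.21 with Smad4 on (adjusted p = 0.000334) and fell by 1.84 ± 0.20 with Smad4 off (adjusted p = 0.00275; 0.102 without the line). B3galt4, the galactosyltransferase of gangliosides, read 3.15, 3.24, 2.10 and 1.23 CPM in B73 and 2.81, 2.54, 1.89 and 1.07 CPM in B87. It fell with TGFβ1 when Smad4 was on (-1.32 ± 0.25, adjusted p = 0.0074; 0.0501 without B73 with Smad4 on under TGFβ1).

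B4galt6 and B4galt5, which make lactosylceramide, fell less with TGFβ1 and Smad4 on (-0.97 and -0.39, adjusted p = 0.00355 and 0.0299), and B4galt6 also fell with Smad4 off (-0.63, adjusted p = 0.0373). B4galt1 rose with Smad4 under TGFβ1 (0.91 ± 0.20, adjusted p = 0.0449), with B73 going from 136 to 293 CPM while B87 went from 116 to 183 CPM, and with TGFβ1 when Smad4 was on (0.67, adjusted p = 0.0416). Without B73 with Smad4 on under TGFβ1 these values were 0.54 (adjusted p = 0.171) and 0.31 (0.226), and without the line the adjusted p were 0.202 and 0.102. B4galt3 rose by 0.40 in that last comparison, with an adjusted p that rounds to the threshold of 0.05.

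Gcnt2, which branches N-acetyllactosamine chains into the I antigen, was called higher. It read 42.3, 44.2, 67.9 and 103 CPM in B73 and 49.0, 47.6, 80.7 and 99.2 CPM in B87. The TGFβ1 libraries were above the SB505124 libraries, and those with Smad4 on were the highest. TGFβ1 raised it by 1.14 ± 0.10 with Smad4 on (adjusted p = 0.000366) and by 0.70 ± 0.10 with Smad4 off (adjusted p = 0.0064), and it rose with Smad4 under TGFβ1 (0.45, adjusted p = 0.0433).

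Gxylt2 (ENSMUSG00000030074, chr6:100704734-100810913, plus strand), which adds xylose to O-glucose on EGF repeats, was the one gene called higher with TGFβ1 in both Smad4 states. In B73 it read 7.79 and 5.62 CPM under SB505124 and 37.9 and 26.3 CPM under TGFβ1, with Smad4 off and on. In B87 it read 32.3 and 22.9 CPM, then 170 and 116 CPM. Within each line the TGFβ1 libraries were well above the SB505124 libraries, although B87 under SB505124 reached the range of B73 under TGFβ1. The log2 fold change was 2.34 ± 0.09 with Smad4 off (adjusted p = 0.000115) and 2.29 ± 0.10 with Smad4 on (adjusted p = 3.86e-05), and without the line neither was called (adjusted p = 0.387 and 0.248). It fell with Smad4 under TGFβ1 (-0.54 ± 0.09, adjusted p = 0.0157). Its paralog Gxylt1 ran from 81.9 to 115 CPM over the 8 libraries and passed no threshold. Per kilobase, Gxylt2 lay below Gxylt1 in B73 throughout and above it in B87 with Smad4 off under TGFβ1 (19.9 against 13.0 CPM).

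B4galt7, which adds the first galactose of the linker that joins glycosaminoglycans to proteoglycan cores, read 18.5, 17.5, 31.2 and 35.5 CPM in B73 and 16.5, 14.4, 29.4 and 32.0 CPM in B87. The TGFβ1 libraries were above those with SB505124 in both lines without overlap. It was called higher with Smad4 on (1.09 ± 0.11, adjusted p = 0.000585) and rose by 0.79 with Smad4 off (adjusted p = 0.00522).

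**Figure D4:**
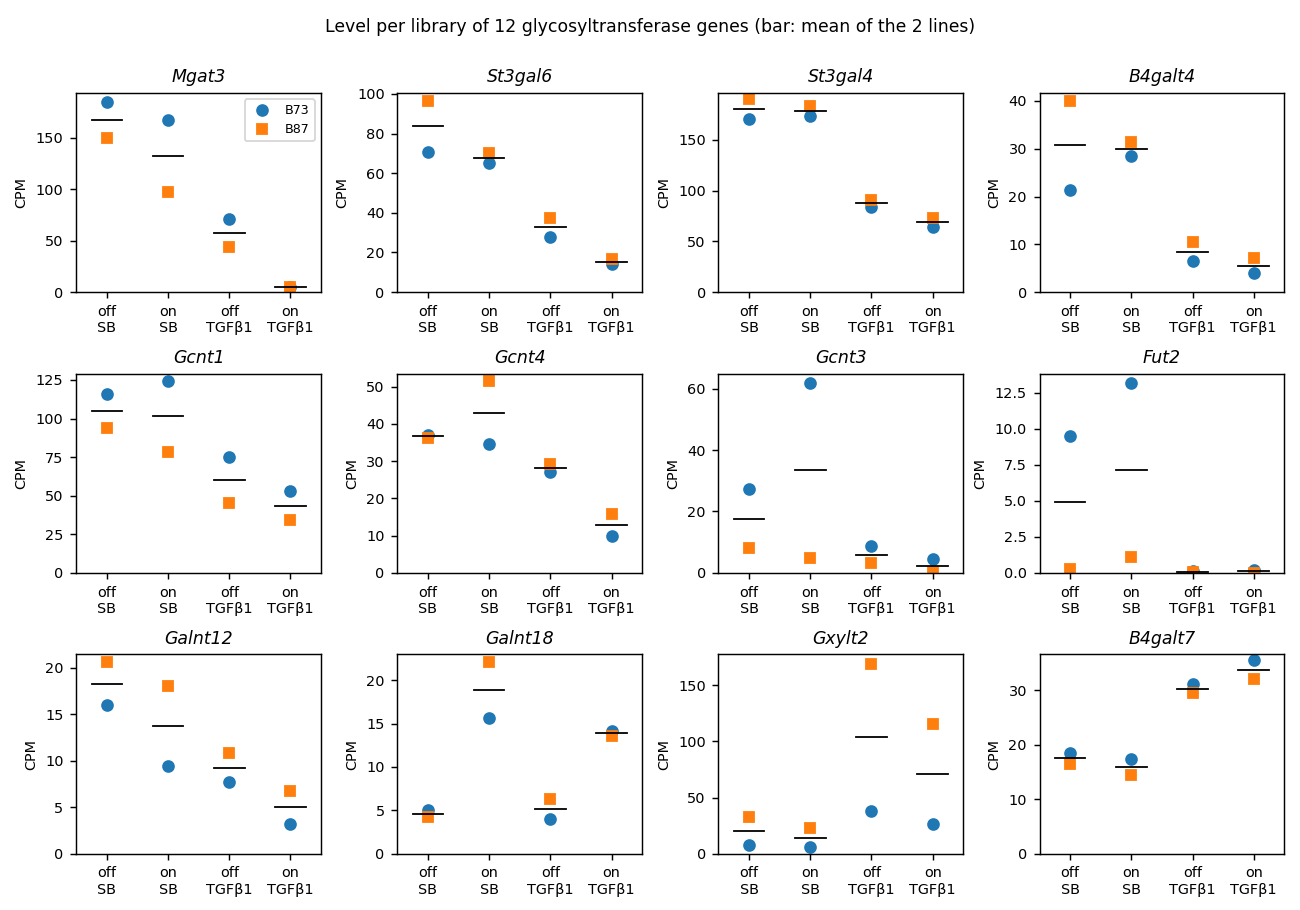
CPM in each library for 12 of the genes, by Smad4 state (off, on) and treatment (SB, SB505124; TGFβ1); circles are B73, squares B87, and bars the mean of the 2 lines. Mgat3 fell to 5.21 and 5.35 CPM with Smad4 on under TGFβ1, Galnt18 followed Smad4 in both treatments, and Gxylt2 rose in both lines from different levels.

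Taken over all conditions, lines B73 and B87 differed with a call in 6 of the 51 genes, 2 higher in B87 (3.92%, against 3.87% of all tested genes) and 4 lower (7.84%, against 4.50%). Higher in B87 were Gxylt2 (2.10 ± 0.07, adjusted p = 1.27e-05) and St8sia6 (4.35 ± 0.59, adjusted p = 0.00336). Lower in B87 were Fut2 (-4.05 ± 0.42, adjusted p = 0.00109; -3.44 without B73 and -3.45 without B87 with Smad4 off under SB505124, and -4.80 and -4.82 without the SB505124 library of B73 or B87 with Smad4 on), Gcnt3 (-2.54 ± 0.44, adjusted p = 0.00876), Fut4 and Galnt3. Galnt3, a GalNAc-transferase best known for its substrate Fgf23, stood at 20.6 to 31.3 CPM in B73 and at 7.07 to 10.1 CPM in B87, with no overlap (-1.48 ± 0.10, adjusted p = 0.000245). Fut4, a Lewis X fucosyltransferase, read 2.80, 3.13, 2.74 and 3.78 CPM in B73 and 0.395, 0.458, 1.196 and 1.12 CPM in B87 (-2.04 ± 0.31, adjusted p = 0.00546). The lines also differed in ductal markers, Krt7 and Ocln among them, which stood at 474 to 649 and 6.07 to 21.0 CPM in B73 and at 12.6 to 28.7 and 0.204 to 0.666 CPM in B87.

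As a description over the 8 libraries, the members whose log2 CPM was most like Mgat3 were B3galt4 (Pearson's r = 0.985), St3gal1 (0.971) and St3gal6 (0.928), and those most like Fut2 were Gcnt1 (0.855), Gcnt3 (0.823) and St8sia4 (0.822). The 8 points share lines, treatments and library preparation, and no test was made.

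Among genes around these enzymes, the shares called with TGFβ1 and Smad4 on can be read against 5.62% of all tested genes called higher and 8.31% called lower. Of 15 tested transferases outside the families above, such as the core 1 synthase, 3 rose and 3 fell by adjusted p with TGFβ1 when Smad4 was on, each by less than 2-fold (15.6% and 17.6% of all tested genes did). Of 17 genes of N-glycan transfer and trimming, Man2a1, a Golgi mannosidase, was called with TGFβ1 and Smad4 on (-1.04 ± 0.10, adjusted p = 0.000477). Of 19 nucleotide sugar genes, Gfpt2, which starts the hexosamine pathway, was called higher there (5.41 ± 1.04, adjusted p = 0.00839), from at most 0.915 CPM under SB505124 to 10.8 CPM in B73 and 15.4 CPM in B87. Of 8 Golgi transporters of nucleotide sugars, Slc35d1 was called lower with TGFβ1 in both states (-1.21 and -1.02, adjusted p = 0.000548 and 0.00298).

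Of 12 mucin genes found, 6 were tested. Mucins are known as carriers of mucin-type O-glycans, and what these cells' mucins carried was not measured. With TGFβ1 and Smad4 on, 3 of the 6 were called lower (8.31% of all tested genes were), the secreted mucins Muc5ac and Muc5b and the membrane mucin Muc13. With Smad4 off Muc5b and Muc13 were (2.82% of all tested genes). Muc5b was at most 0.102 CPM under TGFβ1, below the level of 3 counts. Muc13 with Smad4 on went from 2.22 to 0 CPM in B73. In B87 it went from 0.125 CPM, itself only 3 counts, to 0.051 CPM, so that call rested on B73. Muc5ac reached 53.9 CPM in B73 and 31.7 CPM in B87 with Smad4 on under SB505124 and was at most 1.85 CPM in the other 6 libraries; with Smad4 it was called higher under SB505124 (5.32 ± 0.69, adjusted p = 0.0184). Muc13 was called lower with Smad4 in both treatments and Muc1 under TGFβ1 (-2.33 ± 0.37, adjusted p = 0.0157). Of all tested genes 1.80% were called lower with Smad4 under TGFβ1, and 0.455% lower and 0.636% higher under SB505124. Muc13 with Smad4 on was at 0 CPM in B73 and 0.051 CPM in B87 under TGFβ1, both below the level of 3 counts. In B87 under SB505124 it was at 0.125 CPM, from 3 counts.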

How the data were processed

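RNA was polyA-selected, made into stranded TruSeq libraries and sequenced as single 75-base reads; per the submitters' processing notes the authors used FastQC 0.11.5, Trimmomatic 0.36, STAR 2.5.3a and featureCounts 1.6.3 with the mouse build GRCm38 (mm10). The deposited values are raw whole-number counts per gene, not normalized, in 1 table; the strand setting of the counting is not given in the sources used here, so reads of genes that overlap on opposite strands may not be told apart. All 51 detected genes were found in GENCODE M21, 46 with identical start and end.

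Groups came from the labels (treatment and Dox in the titles). Counts were fitted with edgeR 4.0.16 (R 4.3.3) over all 8 libraries with 4 groups and the line as block, TMM scaling, filterByExpr and quasi-likelihood F-tests, adjusted over 14301 genes. The block stands for the cell line: same-line deviations from the group means correlated at 0.642 to 0.774 over 6 pairs of groups. CPM use TMM-scaled library sizes, and changes within a line use log2 CPM with a prior count of 2. The steps were tested on simulated data for Smad4 under TGFβ1: of 200 genes changed by a log2 fold change of 2 among 14301, 84.5% were recovered with 15 false calls, and 58% with 0 false calls without the line. The simulated lines responded alike to each condition by construction. The simulation therefore does not show how the fits compare where the lines respond differently.

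The genes named were the detected family members called in a Smad4 or treatment comparison, the largest line differences, those with adjusted p under 0.05 or the highest level in their class, and surrounding genes only where called. Family members, classes and lists were chosen with earlier results of these data known. Alternatives were DESeq2 1.42.0 with and without the line, its size factors, other filters and fold rules, the 4 libraries compared alone, and leaving out each library. Tests of whether the lines differed in a response were added after seeing the data. P-values measure the spread between 2 lines, 1 culture each.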

Additional observations from a re-analysis of the deposited data

Results flagged for a closer look

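The Smad4 effect on Mgat3 differed between treatments by the interaction test of edgeR: the log2 fold change under TGFβ1 minus that under SB505124 was -3.03 ± 0.26 (adjusted p = 0.0189), with the same sign in both lines (-3.60 in B73, -2.39 in B87); as given above, it was not called without the line or without any of 5 libraries.

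The Smad4 effect on Gcnt3, taken over both treatments, differed between the lines by -2.14 ± 0.29 on the log2 scale (B87 minus B73, edgeR, adjusted p = 0.0457). It was the 1 member called of 51, against 56 of 14301 tested genes. That test was chosen after seeing the data. Under SB505124 the change of Gcnt3 with Smad4 was 1.17 in B73 and -0.69 in B87, and under TGFβ1 it was -0.96 and -3.70. The last value rests on 3 counts in B87 with Smad4 on under TGFβ1. No other member was called for a line difference in the Smad4 or the TGFβ1 response.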

How the results depend on the processing

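Of 68 log2 fold changes of named genes, 68 kept their sign under every alternative that could be fitted, and with DESeq2 size factors in edgeR 68 stayed on their side of the threshold. Of 35 called values, 25 stayed called with every library left out in turn. The counts of members called were 16 (TGFβ1 with Smad4 on), 7 (TGFβ1 with Smad4 off), 4 (Smad4 under TGFβ1), 1 (Smad4 under SB505124), 1 (interaction) and 6 (lines). With no replicate block, that is with the line left out, edgeR called 9, 2, 1, 0 and 0 for the first 5, with 5 at an unadjusted p under 0.05 for each of the last pair; the line then adds to the residual spread by construction. Of the 29 called values of those comparisons, 17 were no longer called in edgeR without the line and 5 in DESeq2 without it. A test against 2-fold (glmTreat) gave 8, 3, 1, 0 and 0, with 1 and 2 at an unadjusted p under 0.05 for the last pair, and adjusted p with no fold rule gave 32, 16, 12 and, for the lines, 20. The interaction gave 3 in DESeq2 with the line and 4 with no filter on low counts; the cause was not tested. Smad4 under SB505124 gave 0 (11 at an unadjusted p under 0.05) in edgeR on only the 4 libraries compared. That fit leaves fewer residual degrees of freedom and called 77 genes over all tested genes. The line difference gave 2, and 488 over all genes, where 10 counts were needed in every library, a filter that removes the genes low in 1 line. Leaving out 1 library gave 0 to 1 for the interaction and for Smad4 under SB505124, and 2 to 4 for Smad4 under TGFβ1. Depth limits Fut2, Gcnt3, St8sia4 and St8sia6, which fell to 4 counts or fewer in some libraries.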
